A study of Caenorhabditis elegans with 4 samples.

Results

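The fatty acid desaturases of *C. elegans* are encoded by *fat-1* to *fat-7*, and these 7 genes were read from a comparison of remofuscin-treated worms with the negative control (NC). They were chosen by the sequence names of the array probes (Y67H2A.8, W02A2.1, W08D2.4, T13F2.1, W06D12.3, VZK822L.1 and F10D2.9 for *fat-1* to *fat-7*), which 15 of the 43603 probes carried. A gene table gave names to 19814 genes on the array. Remofuscin (soraprazan) is a small molecule developed to remove lipofuscin, the pigment that builds up in ageing cells. Wild-type worms of the Bristol strain N2 were moved as young adults to plates seeded with *E. coli* OP50 that contained 200 µM remofuscin or 0 µM (NC), and were collected after 14 days. The methods name the solvent DMSO in control plates and FUdR, a blocker of reproduction, for the lifespan assay, and name neither for the worms of the arrays. Each array held RNA pooled from many worms. The labels mark 2 experiments, each with 1 array of remofuscin-treated worms and 1 NC array, so that each group holds 2 arrays, too few for more than a rough error on any value. The RNA came from whole worms and was labelled with 1 dye, so a difference can come from fewer cells of a type or from less RNA per cell, and these cannot be told apart.

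A desaturase places a double bond in the acyl chain of a fatty acid, with electrons passed on by cytochrome b5. In *C. elegans*, FAT-5, FAT-6 and FAT-7 are delta-9 desaturases that put the first double bond into saturated chains. FAT-5 acts mainly on palmitic acid, and FAT-6 and FAT-7 act mainly on stearic acid to give oleic acid. FAT-2 turns oleic acid into linoleic acid, FAT-1 is an omega-3 desaturase, and FAT-3 and FAT-4 add double bonds nearer to the carboxyl end, which leads with the elongases to arachidonic and eicosapentaenoic acid. Worms make these polyunsaturated fatty acids from simple precursors, and the intestine is a main site of that synthesis. The delta-9 genes are known to respond to food, temperature and membrane fluidity through factors such as SBP-1, NHR-49 and NHR-80.

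None of the 7 genes passed the limma test of remofuscin-treated worms against NC, and the groups overlapped in 6 of the 7, all but *fat-1*. *fat-1*, *fat-2*, *fat-3*, *fat-4* and *fat-6* had fold changes between 1.11 and 1.28 (remofuscin over NC) and lay above NC in both experiments. *fat-5* lay at 0.94 and *fat-7* at 0.68. The limits of the methods ask for an unadjusted p under 0.05 together with a 2-fold difference in either direction. At these limits 0 of the 7 genes passed, against 2.23% of 14734 tested genes that were higher and 0.896% that were lower. By limma, 0 of the 7 also had an unadjusted p under 0.05, which 2.46% of tested genes reached upwards and 1.1% downwards. An adjusted p under 0.05 was likewise reached by 0 of the 7, against 0.475% of tested genes upwards and 0.0747% downwards. The methods' t-test gave 0 of the 7 at either level. The smallest unadjusted limma p among the 7 was 0.37, for *fat-7*, and every adjusted p rounded to 1.00. Signals are given after each array was scaled to its 75th percentile and multiplied by the mean of those percentiles over the arrays. Where probes of a gene differed in brightness the brightest one stands for it, and all 7 genes were well above background on each of the 4 arrays.

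**Figure D1:**
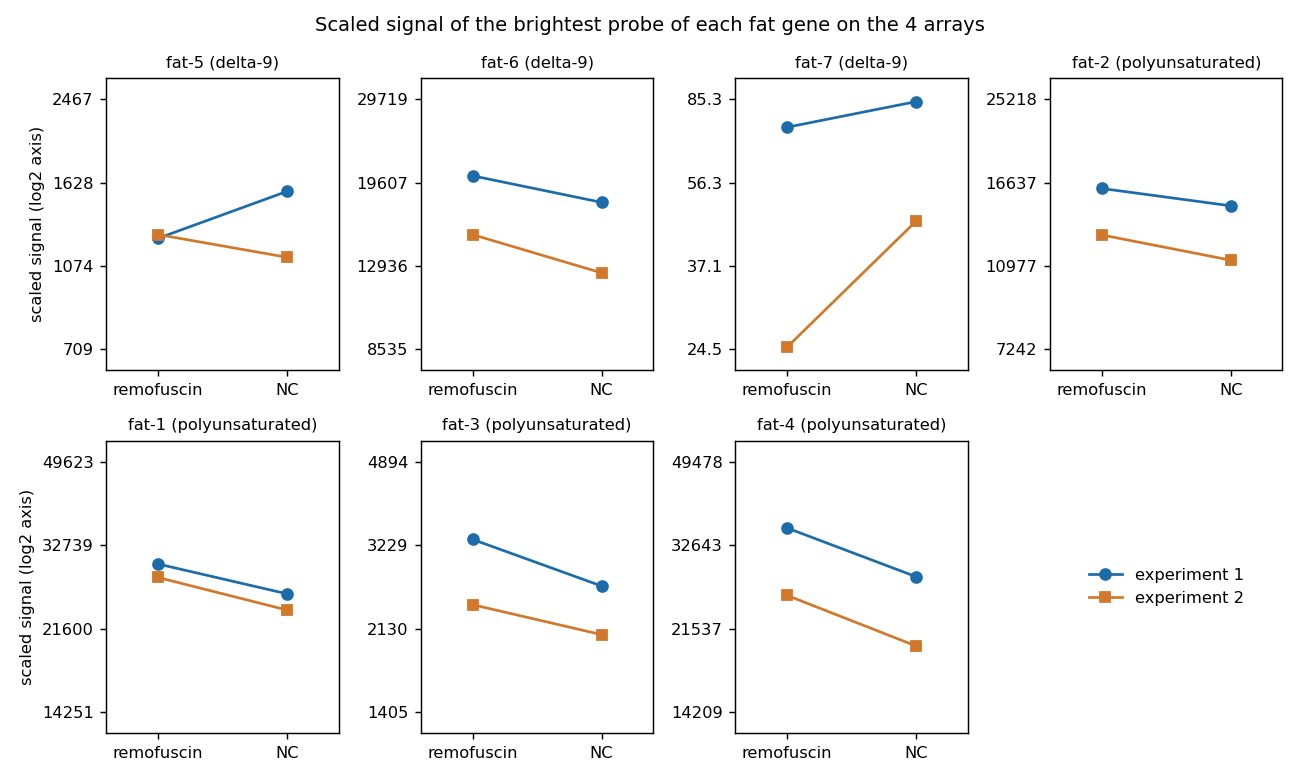
Scaled signal (log2 axis) of the brightest probe of each *fat* gene in remofuscin-treated worms and NC, with a line joining the 2 arrays of an experiment. In 5 of 7 genes both lines lie higher on the remofuscin side, *fat-5* has lines of opposite slope, and both lines of *fat-7* lie lower on the remofuscin side.

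*fat-6*, which encodes a delta-9 desaturase of stearic acid, had signals of 20291 and 15131 in remofuscin-treated worms of experiments 1 and 2, against 17770 and 12500 in NC. The experiment 1 arrays were the brighter ones in both groups, and the groups overlapped. The means were 17711 ± 3649 in remofuscin-treated worms and 15135 ± 3726 in NC (SD, n = 2 arrays each), a fold change of 1.18 with a limma p of 0.577 before adjustment. The 3 probes of *fat-6* gave log2 fold changes between 0.22 and 0.24, and each lay above NC in both experiments. Without NC replicate 2 the log2 fold change of *fat-6* was -0.020, but that fit leaves experiment 2 with a single group. The difference between the experiments therefore enters the value.

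*fat-7*, the close relative of *fat-6* with the same substrate, was represented by 1 probe. Its signals were 74.2 and 24.8 in remofuscin-treated worms of experiments 1 and 2, against 84.3 and 46.5 in NC. Within each experiment the remofuscin array was the dimmer one, but the remofuscin array of experiment 1 lay above the NC array of experiment 2. The means were 49.5 ± 34.9 in remofuscin-treated worms and 65.4 ± 26.8 in NC (SD, n = 2 arrays each), and the fold change of 0.68 had a log2 standard error of 0.58. The probe was near the detection limit in remofuscin-treated worms of experiment 2, where its signal was 1.43 times the lowest signal called well above background on that array. The NC array of the same experiment had a lower limit of its own (11.8, against 17.4 on the remofuscin array), and the *fat-7* signal was 3.95 times it. Normexp background correction, a model-based subtraction, gave a log2 fold change of -0.21 in place of -0.55. With 1 array left out, the value was -0.12 without NC replicate 1 and -0.98 without NC replicate 2. It was -1.34 without remofuscin replicate 1 and 0.25 without remofuscin replicate 2. Each of these fits leaves 1 experiment with a single group, so the difference between the experiments enters the value. A limma fit that took the experiment as a block gave *fat-7* an unadjusted p of 0.0425 and an adjusted p of 0.382. It was the 1 gene of the 7 under 0.05 before adjustment in that fit, where 7.0% of tested genes were higher and 5.34% lower at that level. The block fit gave every probe 1 common standard deviation, so this p does not rest on the spread of *fat-7* itself. Within experiments 1 and 2 the log2 values of *fat-7* were -0.18 and -0.91. Whether the *fat-7* probe also binds *fat-6* transcripts was not tested.

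*fat-5*, which encodes the delta-9 desaturase of palmitic acid, had signals of 1233 and 1256 in remofuscin-treated worms of experiments 1 and 2, against 1559 and 1122 in NC. The remofuscin arrays lay between the NC arrays, and the sign of the difference turned between the experiments, with log2 values of -0.34 and 0.16. The means were 1245 ± 16.7 in remofuscin-treated worms and 1340 ± 309 in NC (SD, n = 2 arrays each), a fold change of 0.94 with a limma p of 0.826 before adjustment. Its 4 probes gave log2 fold changes between -0.24 and -0.04, with 2 probes below NC in both experiments and 2 of opposite sign in the experiments. One of the dimmer probes had signals of 977 and 862 in remofuscin-treated worms, against 1146 and 993 in NC, without overlap of the groups. Without NC replicate 1 the log2 fold change of the brightest probe was 0.15, but that fit leaves experiment 1 with a single group. The difference between the experiments therefore enters the value.

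The polyunsaturated steps start with FAT-2, the desaturase that turns oleic acid into linoleic acid. *fat-2* had signals of 16161 and 12818 in remofuscin-treated worms of experiments 1 and 2, against 14821 and 11300 in NC. The groups overlapped, because the NC array of experiment 1 was brighter than the remofuscin array of experiment 2. The means were 14489 ± 2364 in remofuscin-treated worms and 13061 ± 2490 in NC (SD, n = 2 arrays each), a fold change of 1.11 that was the smallest among the 4 polyunsaturated steps. Leaving out NC replicate 2 or remofuscin replicate 1 gave log2 fold changes of -0.042 and -0.014, but either leaves 1 experiment with a single group, so that the difference between the experiments enters the value. Against NC of its own experiment, *fat-2* lay 0.12 higher on the log2 scale in experiment 1 and 0.18 higher in experiment 2.

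*fat-1*, which encodes the omega-3 desaturase and is the neighbour of *fat-2* in the WBcel235 gene table, had signals of 29833 and 27893 in remofuscin-treated worms of experiments 1 and 2, against 25704 and 23704 in NC. Both remofuscin arrays were brighter than both NC arrays, which held for 1 of the 7 genes, against 9.36% of tested genes with this order and 11% with the opposite order. The means were 28863 ± 1372 in remofuscin-treated worms and 24704 ± 1414 in NC (SD, n = 2 arrays each). The fold change was 1.17, with a limma p of 0.559 before adjustment, and the methods' t-test gave 0.0977. The second probe of the gene had a log2 fold change of 0.09, against 0.22 for the brightest one, and its groups overlapped. Its signals were 24016 and 18910 in remofuscin-treated worms and 21332 and 18740 in NC. With normexp background correction the log2 fold change of the brightest probe was 0.08.

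*fat-3* and *fat-4* encode the delta-6 and delta-5 desaturases and lie beside each other in the gene table. *fat-3* had signals of 3326 and 2402 in remofuscin-treated worms of experiments 1 and 2, against 2635 and 2068 in NC. *fat-4* had signals of 35592 and 25428 in remofuscin-treated worms, against 27910 and 19752 in NC. For both genes the NC array of experiment 1 was brighter than the remofuscin array of experiment 2, so the groups overlapped. The means of *fat-3* were 2864 ± 654 in remofuscin-treated worms and 2352 ± 401 in NC, and those of *fat-4* were 30510 ± 7187 and 23831 ± 5768 (SD, n = 2 arrays each). *fat-4* had the largest fold change of the 4 polyunsaturated steps, 1.28 with a limma p of 0.403 before adjustment, and *fat-3* had 1.21. On the log2 scale *fat-3* lay 0.34 above NC in experiment 1 and 0.22 in experiment 2, and *fat-4* lay 0.35 and 0.36 above it. The 3 probes of *fat-4* gave log2 fold changes between 0.29 and 0.36. Leaving out 1 array moved *fat-3* to between 0.04 and 0.51 and *fat-4* to between 0.11 and 0.61 on the log2 scale. Such a fit leaves 1 experiment with a single group, so the difference between the experiments enters these values.

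Set side by side, the 3 delta-9 genes centred on a log2 value of -0.09 (median) and the 4 polyunsaturated steps on 0.25, beside a median of 0.00 over all tested genes. The polyunsaturated steps lay in a narrow band, from 0.15 to 0.36, and the delta-9 genes ranged from -0.55 to 0.23. The delta-9 median was 0.34 below the polyunsaturated median in all arrays. In experiment 1 the medians were -0.18 for the delta-9 genes and 0.28 for the polyunsaturated steps. In experiment 2 they were 0.16 and 0.23, which leaves a difference of -0.06. *fat-5* was the gene at the delta-9 median over all arrays and in experiment 2, and *fat-7* in experiment 1. In experiment 2 the brightest *fat-5* probe gave 0.16 and its dimmer probes gave -0.20, -0.17 and 0.18. The delta-9 median of that experiment, and its difference from the polyunsaturated median, therefore depended on the probe read. *fat-6* was within the band of the polyunsaturated steps in both experiments, so the delta-9 genes did not share 1 direction. These medians carry no test, because genes measured on the same arrays are not replicates.

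**Figure D2:**
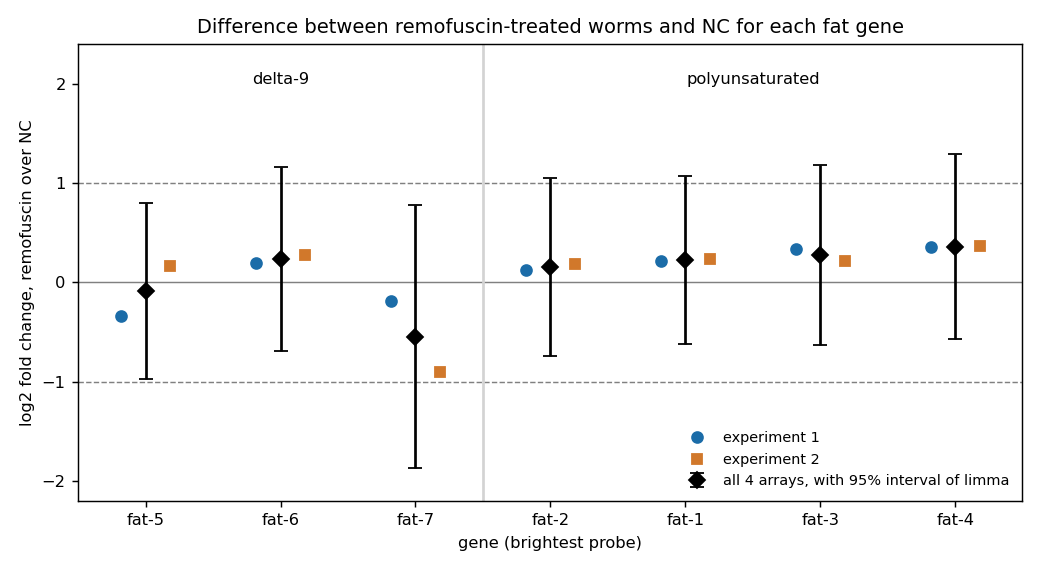
Log2 fold change (remofuscin over NC) of the brightest probe of each *fat* gene in the limma fit (diamonds, with 95% intervals) and within experiments 1 and 2 (coloured points). Dashed lines mark a fold change of 2 in either direction, all 7 intervals include 0, and 6 of the 7 reach past a dashed line.

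Of the 7 intervals, 5 reached above a fold change of 2 and that of *fat-7* reached below 0.5, while the interval of *fat-5* stayed between both limits. The 95% limma interval of the fold change ran from 0.672 to 2.44 for *fat-4*, from 0.509 to 1.74 for *fat-5* and from 0.274 to 1.71 for *fat-7*. At these standard errors, a gene would have needed a fold change of at least 1.80 (*fat-1*) to 2.50 (*fat-7*) to reach an unadjusted p of 0.05. These limits and intervals are those of the fit without a block. With the experiment as a block, 6 of the 7 intervals lay within a fold change of 2 in either direction, and that of *fat-7* reached lower. The block fit gave every probe 1 common standard deviation (0.27 on the log2 scale). All 7 of its intervals are therefore equally wide on that scale and do not reflect the spread of each gene. Of all tested genes, 25.6% had a log2 fold change at least as large in size as that of *fat-4*, 37.9% as that of *fat-3*, 47.9% as that of *fat-1* and 11.6% as that of *fat-7*.

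In 5 of 7 genes both experiments had remofuscin above NC, and in 1 gene both had remofuscin below NC. Over all tested genes, 29% were above NC in both experiments and 31.1% were below NC in both. Of the 15 probes, 10 lay above NC in both experiments, which were all probes of *fat-1*, *fat-2*, *fat-3*, *fat-4* and *fat-6*. Below NC in both lay 3 probes, 2 of *fat-5* and that of *fat-7*. Within experiments 1 and 2 the log2 values of remofuscin over NC were 0.21 and 0.23 for *fat-1* and 0.19 and 0.28 for *fat-6*. With the experiment as a block, which takes the difference between the experiments out of the spread, the 6 genes other than *fat-7* had unadjusted limma p between 0.184 and 0.746, and 0 of the 7 passed after adjustment. After adjustment that fit called 3.73% of tested genes higher and 1.89% lower.

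The experiments differed more than the treatments did. At the brightest probes, experiment 2 was dimmer than experiment 1 in both groups for 6 of the 7 genes, as for 54.7% of tested genes. *fat-5* was the exception, with log2 values (experiment 2 minus experiment 1) of 0.03 in remofuscin-treated worms and -0.47 in NC. Its dimmer probes gave -0.18 and -0.21, -0.37 and -0.52, and 0.05 and -0.41 in the same order, so this exception depended on the probe read. Averaged over both groups, the log2 difference (experiment 2 minus experiment 1) was -0.36 for *fat-2*, -0.41 for *fat-3*, -0.49 for *fat-4*, -0.47 for *fat-6* and -0.11 for *fat-1*. At the brightest probes it was larger in size than the difference between remofuscin and NC for 6 of the 7 genes, all but *fat-1*. Of tested genes, 76.5% had this order. Which gene was the exception depended on the probe read. At the second *fat-1* probe the difference between experiments was -0.27, against 0.09 for remofuscin over NC. At a dimmer *fat-5* probe it was -0.19, against -0.22 for remofuscin over NC. *fat-7* stood apart among the members. Its signal in experiment 2 was lower by a log2 difference of -1.58 in remofuscin-treated worms and -0.86 in NC, and 2.08% of tested genes had a mean difference between experiments at least as large in size as its -1.22. What set the experiments apart was not tested.

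**Figure D3:**
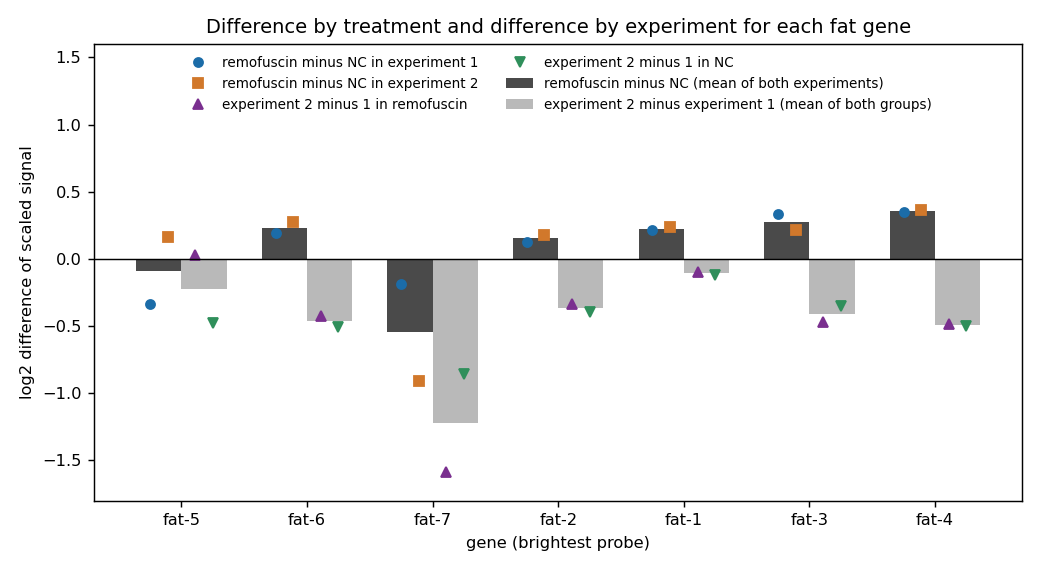
Log2 differences of scaled signal for the brightest probe of each *fat* gene. Dark bars are remofuscin minus NC and light bars are experiment 2 minus experiment 1, each a mean of the 2 points drawn on it. The light bar is negative for all 7 genes and longer than the dark bar for all but *fat-1*.

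*fat-7* alone among the members had a wide pattern over the arrays, being the only one whose 4 log2 signals spanned more than 1 (1.77, against 0.33 to 0.85 for the other members). Among 13529 genes well above background on all arrays, those with the most similar pattern over the 4 arrays were *plag-15*, *mig-17* and *ddx-52*, with Euclidean distances of 0.157, 0.302 and 0.308 between centred log2 signals. *plag-15* had signals of 1379 and 420 in remofuscin-treated worms, against 1362 and 838 in NC. The experiment 2 arrays were the dimmer ones, and the remofuscin array of that experiment was the dimmest of the 4. This order, shared with *fat-7*, follows from choosing the gene by its pattern.

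Other genes of fatty acid synthesis and use were read from 7 lists of 44 genes, of which 41 were tested. None of the 41 passed the limits of the methods in limma (0 higher and 0 lower), 0 had an unadjusted p under 0.05, and their smallest p was 0.15. With the experiment as a block, 3 of the 41 had an unadjusted p under 0.05, all of them higher, where 7.0% of tested genes were. These were *elo-6* (0.00568), *cyp-33E2* (0.0374) and *elo-5* (0.0389), and 0 of the 41 passed after adjustment. Their median log2 fold change was -0.01. Of these genes, 15 lay above NC in both experiments and 14 below NC in both, against 29% and 31.1% of tested genes. *elo-8* had no named probe, *elo-9* was not well above background on any array, and *pod-2*, acetyl-CoA carboxylase, has no value for remofuscin replicate 2 because its brightest probe was an outlier spot there.

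Upstream of the desaturases, acetyl-CoA supply and fatty acid synthase (*acly-1*, *acly-2* and *fasn-1* tested) had a median log2 fold change of -0.22. *fasn-1*, the fatty acid synthase, differed by a log2 value of -0.03 in experiment 1 and -0.42 in experiment 2. The 3 partners of the elongases in the elongation cycle had a median of -0.16. The 7 tested elongases, which lengthen the chains between desaturation steps, had a median of 0.04 and ranged from -0.29 to 0.74. *elo-5* and *elo-6*, which act on branched chains, and *elo-2* were the highest of them. *elo-6* had signals of 9031 and 5717 in remofuscin-treated worms of experiments 1 and 2, against 6021 and 3055 in NC, and the groups overlapped. Its fold change of 1.68 had a limma p of 0.15 before adjustment, and with the experiment as a block it had an adjusted p of 0.094. The 3 genes of electron transfer to the desaturases had a median of 0.28. Of these, *cytb-5.1*, which encodes a cytochrome b5, lay 0.06 above NC on the log2 scale in experiment 1 and 0.90 above it in experiment 2.

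For the 9 regulators of desaturase transcription the median was -0.21 on the log2 scale, and 6 of the 9 lay below NC in both experiments, against 31.1% of tested genes. *sbp-1*, the sterol-regulatory factor that drives delta-9 genes, had signals of 904 and 1234 in remofuscin-treated worms of experiments 1 and 2, against 1067 and 1744 in NC. Its log2 fold change was -0.37, with a limma p of 0.406 before adjustment, and its groups overlapped. *nhr-80*, a nuclear receptor that acts on the delta-9 genes, had -0.15, and *nhr-49* had -0.08. In contrast to the desaturases, 8 of the 9 regulators were brighter in experiment 2 than in experiment 1 in both groups, where 31.4% of tested genes were. Downstream, the 7 genes of polyunsaturated fatty acid use had a median of 0.26, and 6 of the 7 lay above NC in both experiments, against 29% of tested genes. *cyp-33E2*, a cytochrome P450 that oxidizes eicosapentaenoic acid, had signals of 232 and 158 in remofuscin-treated worms, against 149 and 112 in NC, without overlap of the groups. Its fold change was 1.47, with a limma p of 0.203 before adjustment and an adjusted p of 0.354 with the experiment as a block. The 9 genes of phosphatidylcholine synthesis and fat storage had a median of 0.00.

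**Figure D4:**
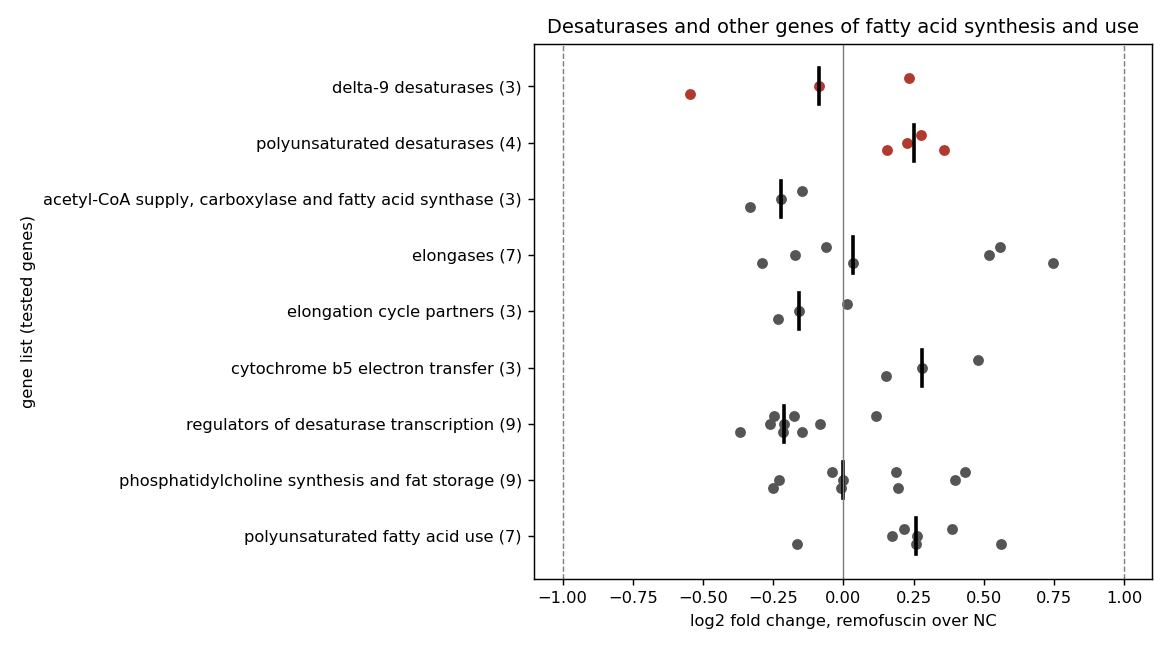
Log2 fold change (remofuscin over NC) of every tested gene in the 2 desaturase groups (red) and in 7 other lists of fatty acid synthesis and use (grey), with black bars at the medians and the number of tested genes in parentheses. All points lie between the dashed lines at a fold change of 2 in either direction, and the medians run from -0.22 for acetyl-CoA supply and fatty acid synthase to 0.28 for electron transfer by cytochrome b5.

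The arrays held RNA of several tissues. Of 8 intestine markers 7 were measured, with 0 past the limits in limma (0 at an unadjusted p under 0.05), a median log2 fold change of 0.13 and summed signals of 10522 and 12288 in remofuscin-treated worms, against 9540 and 13145 in NC. The 8 oocyte and embryo markers were all measured, with a median of -0.12 and summed signals of 163908 and 202516 in remofuscin-treated worms, against 170429 and 220343 in NC. For the 6 measured sperm markers of 7 the median was -0.48, with summed signals of 12026 and 9338 in remofuscin-treated worms, against 16291 and 10610 in NC. Of 6 hypodermis markers 5 were tested and 3 were higher past the limits, where 2.23% of tested genes were. These were all cuticle collagens (*rol-6*, *col-19* and *dpy-7*), with adjusted limma p of 0.0095, 0.036 and 0.17. *bli-1* was not well above background on any array. The other tested markers, *elt-3* and *lin-26*, had log2 fold changes of 0.09 and -0.07. The summed signals of all 6 hypodermis markers were 12001 and 12441 in remofuscin-treated worms, against 5332 and 5982 in NC. Most of that difference was *col-19*, with signals of 7709 and 7268 in remofuscin-treated worms, against 1439 and 1157 in NC. The 5 measured yolk markers of 6 had a median of 0.06. Among them *vit-1* was higher past the limits, with a limma p of 0.0303 before adjustment, and did not pass after adjustment. The 8 moulting markers had a median of -0.05. The part of these tissues in the desaturase values was not tested.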

How the data were processed

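Gene expression was measured on Agilent *C. elegans* oligo microarrays, with 2 arrays of remofuscin-treated worms and 2 of NC. The files deposited by the authors hold, for each array, intensity values of the scanner, corrected for background within the array by Feature Extraction (version 11.5.1.1 in the headers) and not scaled between arrays. A deposited table gives log2 values of these arrays, of which at least 99.94% lay within 0.01 of the log2 scanner intensity. GeneSpring's global normalization, which the methods state, was not used here.

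Control spots and outlier spots (8 to 38 per array) were left out, spots of a probe were averaged, and the 75th percentile (603 to 786) of each array was subtracted on the log2 scale. No array had saturated spots (0 on each). Between 63.3% and 66.6% of the spots were well above background. A probe entered the test if it had a value on all 4 arrays and stood well above background on 2 or more of them (29060 probes). The test was limma's moderated test (3.58.1, under R 4.3.3) of remofuscin minus NC, two-sided, with Benjamini-Hochberg adjustment over all tested probes. The test was checked on simulated data with independent noise on each array and no difference between experiments. That check therefore does not cover the difference between experiments in these arrays. Background shares are taken over 14734 genes, each read at its brightest probe. Whether replicate arrays came from separate cultures is known only from the description of 2 independent experiments. Python 3.11.15 with pandas 2.3.3 and matplotlib 3.10.9 served for tables and figures.

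Probes were named through sequence names and accessions in a WBcel235 gene table, which named 34320 probes. The array design is annotated to another build, so no positions are given. The genes named are the 7 *fat* genes, the genes of lists written from general knowledge of the pathway, and, for a *fat* gene whose log2 signals span more than 1, the 3 genes closest to it in pattern. The members and lists were chosen with earlier results of these data known. The alternatives were other scalings (median, quantile, none), normexp correction with an offset of 50, the deposited log2 values, the methods' t-test, an intensity trend, other filters, outlier spots kept, a gene read as the mean over its probes, a block for the experiment, and fits with 1 array removed.

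The replicate numbers pair the arrays, since per the labels an experiment holds 1 array of either group. As a description across 29060 probes, the deviations of the groups from their means had a Pearson's r of 0.736 (Spearman's rho 0.763). With the block, limma estimated an infinite prior and gave every probe 1 common standard deviation (0.27 on the log2 scale), so its p rest on that assumption.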

Additional observations from a re-analysis of the deposited data

How the results depend on the processing

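The number of *fat* genes past the limits of the methods was 0 under each of the 16 alternatives. Of the 12 alternatives on all 4 arrays, 5 leave these fold changes as they are by construction and 4 shift all 7 by a single amount of at most 0.021 on the log2 scale. The other 3 (quantile normalization, normexp correction and the mean over probes) can move genes separately. The mean over probes does so only for genes with several probes, so *fat-2*, *fat-3* and *fat-7* stay as they are there by construction. Across these 3 alternatives 21 of 21 values kept their direction, the fixed ones included. With 1 array left out, which leaves an experiment with a single group and lets the difference between experiments into the value, 23 of 28 kept it. The exceptions were *fat-5* at 0.15 without NC replicate 1, *fat-2* at -0.042 and *fat-6* at -0.020 without NC replicate 2, *fat-2* at -0.014 without remofuscin replicate 1, and *fat-7* at 0.25 without remofuscin replicate 2 (log2 fold changes). With 1 array left out, *fat-2* ran from -0.042 to 0.35, *fat-6* from -0.020 to 0.49, *fat-5* from -0.32 to 0.15 and *fat-7* from -1.34 to 0.25. Such a fit takes the spread from the group with both arrays and lends it to the single one. The polyunsaturated median was 0.21 under quantile normalization, 0.16 under normexp correction, and 0.078 to 0.42 with 1 array left out. The delta-9 median then ran from -0.32 to 0.25, and the difference between the medians from -0.43 to -0.15. The limma fit with the replicate block by experiment gave *fat-7* an unadjusted p of 0.0425. In that fit 0 of the 7 *fat* genes passed the limits of the methods, and 0 had an adjusted p under 0.05. Across all probes, 830 passed the limits (535 higher and 295 lower). This count was 222 under normexp correction (206 higher), 399 with the methods' t-test (242 higher), 1474 without a filter on dim probes (794 higher), 427 with probes well above background on all 4 arrays (357 higher), and 612 to 2568 with 1 array left out, the highest without NC replicate 1 and 1294 without NC replicate 2. With the block 972 passed. The number of arrays limits all these values, and *fat-7* is limited further by its low signal over background.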
